A study of Mus musculus with 15 samples.

Results

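The class I antigen presentation genes of the mouse aorta were followed here as 9 listed genes, H2-K1, H2-D1, B2m, Tap1, Tap2, Tapbp, Nlrc5, Erap1 and H2-T23. They were looked up by symbol. All 9 were found among the 34714 genes of the expression table, and all 9 were among the 12603 genes tested, that is those reaching 1 in 5 or more libraries. RNA sequencing had been done on the aorta of wild-type mice (WT in the labels) in 3 groups of 5 libraries. The AngII+RvE1 group received angiotensin II by infusion at 750 ng/kg per minute together with resolvin E1 (RvE1), a lipid mediator of the resolution of inflammation, injected into the peritoneal cavity at 2 µg/kg per day. The AngII group received the infusion alone, which raises blood pressure. The Sham group is labelled as sham without further detail. The series concerns resolvin E1 and vascular remodelling in hypertension, and the labels give neither the age nor the sex of the mice, the length of infusion, nor whether each library came from a separate animal, so every p-value reflects spread among libraries that may be technical.

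Class I molecules sit on the surface of nearly all nucleated cells and show peptides cut from the cell's own proteins to CD8+ T cells. A heavy chain pairs with beta-2 microglobulin in the endoplasmic reticulum, where the loading complex supplies it with peptides pumped in from the cytosol. Interferon gamma is a textbook inducer of these genes, in vascular cells as in leukocytes, and among the factors it acts through are IRF1 and the class I transactivator NLRC5.

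Of the 9 genes, 6 lie on mouse chromosome 17, in or beside the H2 complex. In the GRCm38.p6 assembly (mm10) Tapbp spans bases 33919478 to 33929290, H2-K1 33996012 to 34000619, Tap1 34187556 to 34197225, Tap2 34204479 to 34216321, H2-D1 35263094 to 35267497 and H2-T23 36029977 to 36032701. The other 3 are elsewhere: B2m on chromosome 2 (122147687 to 122153082), Nlrc5 on chromosome 8 (94434335 to 94527272) and Erap1 on chromosome 13 (74639573 to 74693205). The immunoproteasome genes Psmb9 and Psmb8 flank Tap1. Psmb9 runs in the opposite direction to Tap1, with 225 bases between them.

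RefSeq promoter windows, 250 bases before to 50 after an annotated start, were on hand for 7 of the 9 genes, Tap2 and Nlrc5 being the 2 without one. The first 250 bases of 5 of them are given because H2-K1 and H2-D1 carry the same motifs in the same order, B2m and H2-T23 hold the interferon-type motif, and Tap1 had the largest difference between AngII and Sham. Capitals mark motif matches on either strand. The H2-K1 window lies inside the RefSeq gene span but upstream of the outermost GENCODE M21 start, and the Tap1 window covers the gap to Psmb9.
H2-K1 (chr17:34000348-34000597, minus strand): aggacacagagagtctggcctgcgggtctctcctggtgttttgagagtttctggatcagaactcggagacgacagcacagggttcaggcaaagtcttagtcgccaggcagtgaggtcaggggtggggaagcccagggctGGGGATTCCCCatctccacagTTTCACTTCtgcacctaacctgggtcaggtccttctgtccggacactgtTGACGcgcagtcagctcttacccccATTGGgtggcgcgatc
H2-D1 (chr17:35262844-35263093, plus strand): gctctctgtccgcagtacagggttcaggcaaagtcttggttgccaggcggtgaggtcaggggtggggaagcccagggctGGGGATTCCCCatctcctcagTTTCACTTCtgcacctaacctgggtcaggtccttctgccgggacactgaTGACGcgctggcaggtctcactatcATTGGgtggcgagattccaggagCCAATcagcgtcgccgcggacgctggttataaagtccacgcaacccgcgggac
B2m (chr2:122147437-122147686, plus strand): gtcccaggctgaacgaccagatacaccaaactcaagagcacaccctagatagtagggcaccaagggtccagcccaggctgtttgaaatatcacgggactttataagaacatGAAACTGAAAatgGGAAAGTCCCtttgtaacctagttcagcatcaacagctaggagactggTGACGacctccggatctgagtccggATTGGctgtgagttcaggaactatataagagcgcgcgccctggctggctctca
H2-T23 (chr17:36032702-36032951, minus strand): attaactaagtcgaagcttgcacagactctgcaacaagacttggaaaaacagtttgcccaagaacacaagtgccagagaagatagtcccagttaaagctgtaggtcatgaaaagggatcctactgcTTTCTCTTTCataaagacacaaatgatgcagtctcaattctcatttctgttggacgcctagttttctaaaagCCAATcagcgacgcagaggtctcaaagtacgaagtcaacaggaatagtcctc
Tap1 (chr17:34187306-34187555, plus strand): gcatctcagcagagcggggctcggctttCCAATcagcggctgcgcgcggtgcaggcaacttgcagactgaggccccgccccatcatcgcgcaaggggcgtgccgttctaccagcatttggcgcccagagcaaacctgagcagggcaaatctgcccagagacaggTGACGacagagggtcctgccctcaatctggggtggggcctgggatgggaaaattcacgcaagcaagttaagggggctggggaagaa

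The motifs searched were the NF-kappaB consensus, the interferon-stimulated response element (ISRE) core, made of GAAA, 2 bases of any kind and GAAA, a shorter form of it, GAANNGAAA (added after the windows had been read), the cyclic AMP response element motif TGACG, and the CCAAT box. In both H2-K1 and H2-D1 the NF-kappaB consensus came first, as 2 overlapping matches, followed by GAANNGAAA on the reverse strand, TGACG, and CCAAT on the reverse and then the forward strand. The last CCAAT of H2-K1 falls after its annotated start and is not printed. Over 239 aligned bases the 2 windows were identical at 211, or 88.3%. In B2m the window holds the ISRE core at base -139, the NF-kappaB consensus at -126, TGACG at -78 and CCAAT in reverse at -53, counted from the annotated start. No capital run holds 2 different motifs.

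Among the 7 windows, the ISRE core was found in 3 (B2m, Erap1 and H2-T23), against 3.49% of all 27025 RefSeq windows of the same length. The NF-kappaB consensus was in 3, against 8.18%, and the shorter GAANNGAAA in 2, against 7.56%. TGACG was in 4, against 21%, and CCAAT in 6, against 37.9%. The ISRE core of Erap1 begins at base -4 and runs across the annotated start, and that window lies inside the RefSeq gene span. A match describes the letters and no more.

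**Figure D1:**
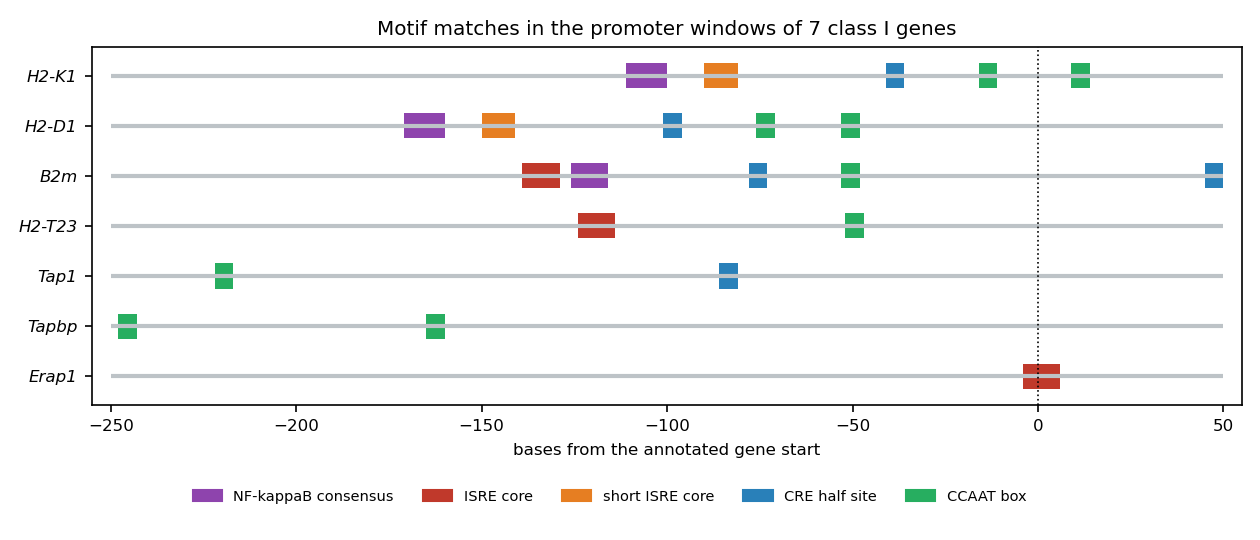
Positions of the motif matches in the promoter windows of 7 class I genes, with the distance from the annotated start in bases on the horizontal axis and 1 line per gene. H2-K1 and H2-D1 show the same motifs in the same order, and Tapbp shows CCAAT alone.

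Values are read as FPKM (fragments scaled for transcript length and for library size). The table itself does not name its unit. Library sums ran between 385846 and 514281, and 11466 to 12996 genes reached 1 FPKM. Read depth is unknown, so no counting interval is given. Before any group comparison, 3 AngII libraries stood apart. On the first principal component of all tested genes, which held 41.1% of the variance, AngII libraries 3, 5 and 4 scored 78.9, 75.8 and 32.9, while the other 12 lay between -28.9 and 2.37. Their leukocyte content also stood apart. Summed B cell markers (7 of 7 listed genes in the table) came to 218 to 1076 FPKM in AngII 3, 4 and 5, against 3.87 and 8.86 FPKM in AngII 1 and 2. Results are therefore given with and without these 3 libraries.

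The class I genes were higher in AngII aorta than in the other groups, and this height came largely from AngII libraries 3, 4 and 5. For 9 of 9 genes, each of these 3 libraries exceeded every one of the other 12. The same was true of 15% of all tested genes, so the pattern is widely shared. AngII libraries 1 and 2 lay within or near the range of the AngII+RvE1 and Sham libraries. The coefficient of variation between libraries ran from 20.7% (Erap1) to 69.4% (Tap1) in AngII, with 9.33% (Erap1) to 35.8% (Nlrc5) in AngII+RvE1 and 11.9% (Erap1) to 36.4% (H2-T23) in Sham.

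**Figure D2:**
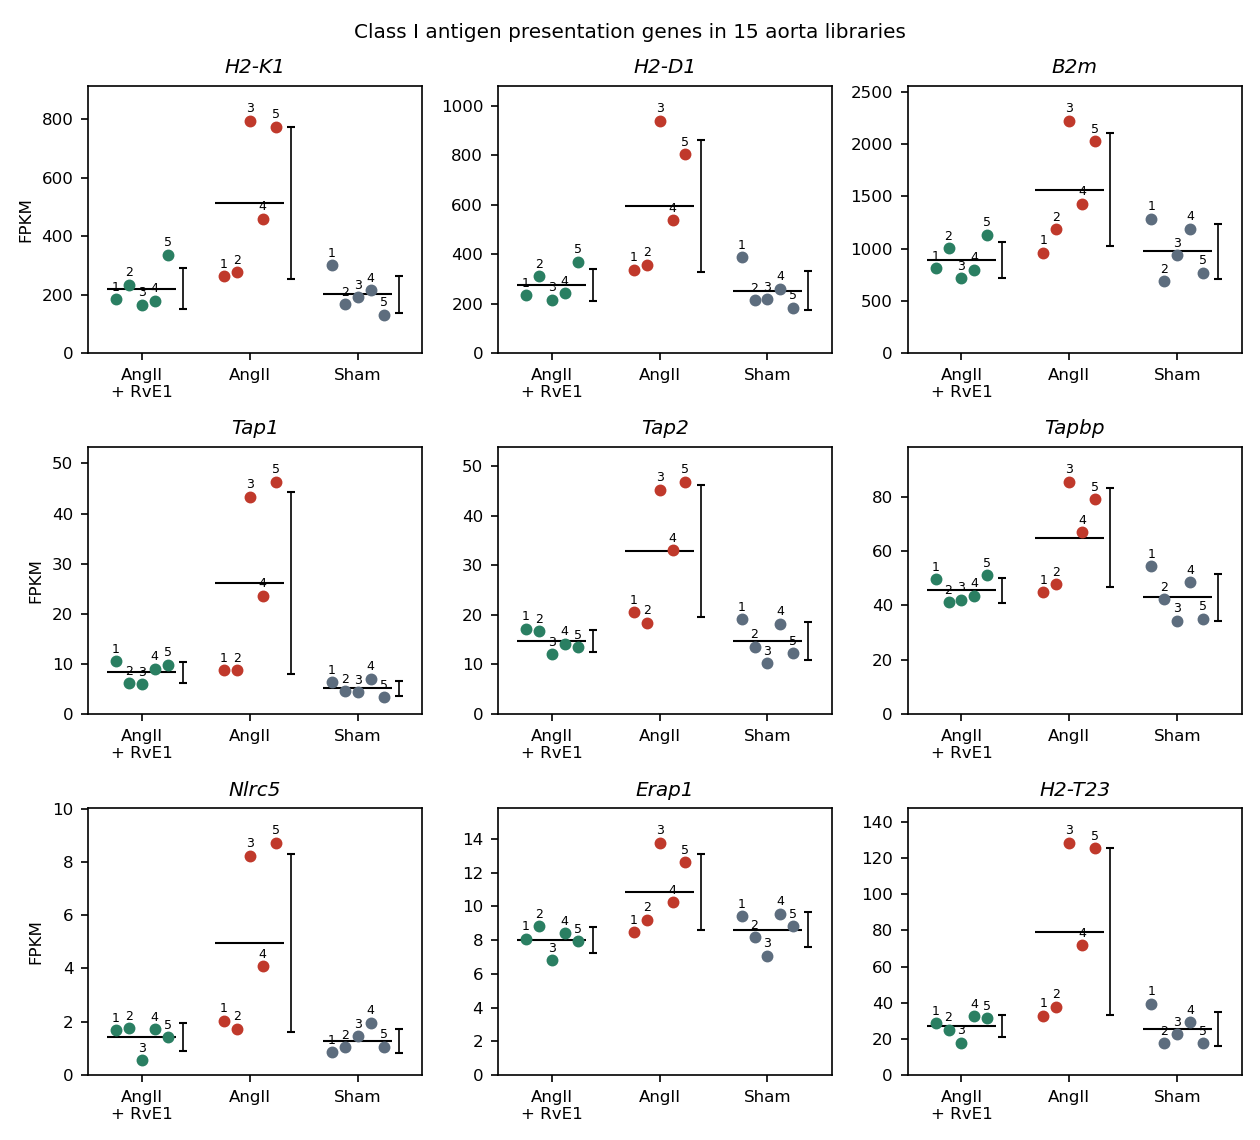
FPKM of the 9 class I genes in every library, 1 panel per gene, with AngII+RvE1, AngII and Sham from left to right. Points are libraries with their replicate number, horizontal lines are group means and the bars beside them span 1 SD either way (n = 5). AngII 3, 4 and 5 lie above all other points in all 9 panels.

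The heavy chains bind the peptide. H2-K1, one of the classical heavy chains, had 185, 234, 165, 179 and 336 FPKM in AngII+RvE1 libraries 1 to 5, 263, 277, 794, 459 and 774 FPKM in AngII libraries 1 to 5, and 300, 167, 191, 214 and 131 FPKM in Sham libraries 1 to 5. The 3 high libraries were AngII 3, 4 and 5, while AngII 1 and 2 fell below AngII+RvE1 5 and Sham 1, so that all groups overlapped. Means were 220 ± 70.0 FPKM in AngII+RvE1, 513 ± 259 FPKM in AngII and 200 ± 63.8 FPKM in Sham (n = 5 each, SD).

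H2-D1, the other classical heavy chain, had 236, 311, 216, 242 and 370 FPKM with AngII+RvE1, 337, 358, 940, 539 and 804 FPKM with AngII, and 387, 215, 218, 261 and 184 FPKM in Sham. Its order of libraries followed H2-K1 closely, and AngII 1 and 2 again lay below Sham 1 and AngII+RvE1 5. The means were 275 ± 64.0 FPKM with AngII+RvE1, 596 ± 269 FPKM with AngII and 253 ± 79.6 FPKM in Sham (n = 5 each, SD). H2-D1 exceeded H2-K1 in 15 of 15 libraries.

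H2-T23 encodes Qa-1, a nonclassical heavy chain that NK cells read through CD94/NKG2 receptors. It had 28.8, 25.1, 17.8, 32.6 and 31.4 FPKM in AngII+RvE1, 32.8, 37.8, 128, 71.7 and 126 FPKM in AngII, and 39.5, 17.7, 22.5, 29.2 and 17.7 FPKM in Sham. All 5 AngII libraries exceeded all 5 AngII+RvE1 libraries, by as little as the step between 32.8 FPKM in AngII 1 and 32.6 FPKM in AngII+RvE1 4. Sham 1 lay above AngII 1 and 2, so AngII and Sham overlapped.

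B2m, the invariant light chain, was the most abundant of the 9 genes. Its values were 814, 1006, 714, 798 and 1133 FPKM with AngII+RvE1, 961, 1186, 2223, 1430 and 2025 FPKM with AngII, and 1287, 686, 935, 1191 and 768 FPKM in Sham. AngII 1 and 2 lay below Sham 1 and Sham 4, and the groups overlapped. Means were 893 ± 171 FPKM in AngII+RvE1, 1565 ± 541 FPKM in AngII and 973 ± 261 FPKM in Sham (n = 5 each, SD).

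TAP1 and TAP2 form the transporter that moves peptides into the endoplasmic reticulum. Tap1 had 10.5, 6.10, 5.99, 9.04 and 9.84 FPKM in AngII+RvE1 libraries, 8.75, 8.71, 43.4, 23.6 and 46.3 FPKM in AngII libraries, and 6.31, 4.52, 4.38, 7.06 and 3.40 FPKM in Sham libraries. Every AngII library exceeded every Sham library, but AngII+RvE1 1, 4 and 5 lay above AngII 1 and 2. The mean was 8.29 ± 2.11 FPKM with AngII+RvE1, 26.2 ± 18.2 FPKM with AngII and 5.13 ± 1.5 FPKM in Sham (n = 5 each, SD).

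Tap2 had 17.2, 16.7, 12.04, 14.2 and 13.5 FPKM with AngII+RvE1, 20.6, 18.4, 45.2, 33.0 and 46.8 FPKM with AngII, and 19.2, 13.6, 10.2, 18.2 and 12.3 FPKM in Sham. Here all AngII libraries exceeded all AngII+RvE1 libraries, whereas Sham 1 lay above AngII 2. Tap2 stood above Tap1 in 15 of 15 libraries.

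NLRC5 is a transcriptional activator of the class I genes. Nlrc5 was the least abundant gene of the set in all groups, with 1.69, 1.76, 0.548, 1.73 and 1.41 FPKM in AngII+RvE1, 2.04, 1.74, 8.24, 4.09 and 8.71 FPKM in AngII, and 0.855, 1.05, 1.45, 1.96 and 1.07 FPKM in Sham. AngII 2 lay below AngII+RvE1 2 and Sham 4, while AngII 3 and 5 stood far above all other libraries. At such low levels a difference on the log2(FPKM + 1) scale understates the change.

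Tapbp encodes tapasin, which holds the heavy chain at the transporter until peptide is loaded, and Erap1 encodes a peptidase that trims peptides in the endoplasmic reticulum. Tapbp averaged 45.6 ± 4.56 FPKM in AngII+RvE1 (range 41.3 to 51.2), 64.9 ± 18.2 FPKM in AngII (range 45.0 to 85.5) and 43.0 ± 8.72 FPKM in Sham (range 34.3 to 54.6). Erap1 averaged 8.01 ± 0.747 FPKM in AngII+RvE1 (range 6.82 to 8.82), 10.9 ± 2.25 FPKM in AngII (range 8.48 to 13.8) and 8.62 ± 1.02 FPKM in Sham (range 7.08 to 9.57). Both varied least of the 9 genes in AngII, and all groups overlapped.

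Within every library B2m was highest, followed by H2-D1 and then H2-K1. Tapbp came next by mean in AngII+RvE1 and Sham, while H2-T23 exceeded Tapbp in 3 of 5 AngII libraries and in 0 of 5 libraries of AngII+RvE1 and of Sham. Below them came Tap2. Tap1 and Erap1 were neighbours whose ranges overlapped in AngII+RvE1 and AngII, Tap1 being the higher in 3 of 5 AngII+RvE1, 4 of 5 AngII and 0 of 5 Sham libraries. Nlrc5 closed the order, well apart from the rest in AngII+RvE1 and Sham. These levels compare genes only as far as FPKM corrects for length.

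AngII against Sham asks what the infusion changed. Among the class I genes, limma's moderated test on log2(FPKM + 1) called 4 of 9 higher in AngII at a Benjamini-Hochberg adjusted p under 0.05 over all genes, and 0 of 9 lower, against 2.36% of all tested genes called higher and 0.809% called lower. Tap1 rose most, by 1.86 (SE 0.41, adjusted p = 0.0300), a fold of 3.64 on the FPKM + 1 scale. Tap2 rose by 1.05 (SE 0.25, adjusted p = 0.0374), H2-T23 by 1.45 (SE 0.36, adjusted p = 0.0433) and H2-D1 by 1.16 (SE 0.30, adjusted p = 0.0465), all as log2 differences. The median log2 difference of the 9 was 1.16, against 0.11 over all tested genes.

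The other 5 genes did not pass the test. Nlrc5 differed by 1.21 (limma adjusted p = 0.0535) and H2-K1 by 1.25 (limma adjusted p = 0.0541) on the log2 scale, close to the threshold that H2-D1 passed. Tapbp differed by 0.56, B2m by 0.66 and Erap1 by 0.29, with limma adjusted p of 0.0901, 0.149 and 0.178. Tap1 was the only gene of the 9 with no overlap between AngII and Sham libraries, a pattern seen in 2.92% of all tested genes.

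These calls depended on the libraries and on the settings. They numbered 0 of 9 with no filter on low values, 0 of 9 with only the 2 groups fitted and 7 of 9 with libraries weighted by their spread. Without AngII 3, 4 and 5, which left 2 AngII libraries and 12281 tested genes, limma called 0 of 9 genes in this comparison, against 0.147% of all tested genes called higher. At an unadjusted p under 0.05 stood 1 of 9, against 6.77% of all tested genes. The median log2 difference was then 0.42, all 9 differences staying positive. Tap1 kept the largest of them, 0.70 (SE 0.26, 95% interval 0.15 to 1.26, limma adjusted p = 0.562). Leaving out AngII 3, 4 or 5 singly, or Sham 2 or 5, also gave 0 of 9. Without Sham 4 it gave 2, without AngII 1 or 2 it gave 7, and without a single AngII+RvE1 library, which enters only through the shared spread, 1 or 2.

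AngII+RvE1 against AngII asks what resolvin E1 changed under the infusion, and it uses the same 5 AngII libraries. In AngII+RvE1, 4 of 9 class I genes were lower by limma's test and 0 of 9 higher, against 4.31% of all tested genes called lower and 4.21% called higher. Tap2 fell by 1.02 (SE 0.25, adjusted p = 0.0276), H2-T23 fell by 1.32 (SE 0.36, adjusted p = 0.0397), Nlrc5 fell by 1.13 (SE 0.32, adjusted p = 0.0451) and H2-D1 fell by 1.02 (SE 0.30, adjusted p = 0.0465), as log2 differences. Tap2 and H2-T23 had no overlap between the groups, as did 5.23% of all tested genes in that direction. The median log2 difference of the 9 was -1.02, against -0.11 over all tested genes.

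The 5 genes short of the threshold also had negative differences. Log2 differences were -1.11 for H2-K1 and -1.26 for Tap1, with limma adjusted p of 0.0515 and 0.0646. Erap1 differed by -0.38, B2m by -0.76 and Tapbp by -0.46, with limma adjusted p of 0.0788, 0.0904 and 0.121. Tap1, which rose most in AngII against Sham, was thus not called here, and its groups overlapped.

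Without AngII 3, 4 and 5, limma called 0 of 9 genes lower, against 0.00814% of all tested genes, and 0 of 9 stood at an unadjusted p under 0.05, against 11.6%. The median log2 difference was -0.28. Tap1 then differed by -0.10 (SE 0.26, 95% interval -0.65 to 0.46) and Tap2 by -0.39 (SE 0.22, 95% interval -0.88 to 0.09). With single libraries left out, the count was 0 without AngII 3, 4 or 5 and without AngII+RvE1 1, 3, 4 or 5. It was 1 without AngII+RvE1 2 or Sham 4, 2 without Sham 2 or 5, 7 without AngII 2 and 9 without AngII 1. From all libraries, it was 0 with no filter on low values, 1 with only the 2 groups fitted and 9 with libraries weighted by their spread.

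AngII+RvE1 against Sham sets the aortas given both agents beside the sham ones. Limma called 0 of 9 class I genes, with 0 of 9 at an unadjusted p under 0.05, against 0.0238% of all tested genes called in either direction. Log2 differences ran from -0.10 for B2m to 0.60 for Tap1, with a median of 0.10. The interval for Tap1 was -0.26 to 1.47 (95%, limma adjusted p = 0.872), so a difference in Tap1 was not shown to be absent. When AngII 3, 4 and 5 were left out of the shared spread, the Tap1 difference kept its size with SE 0.19 (limma unadjusted p = 0.00869, adjusted p = 0.557), and was the 1 of 9 at an unadjusted p under 0.05, against 7.69% of all tested genes.

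**Figure D3:**
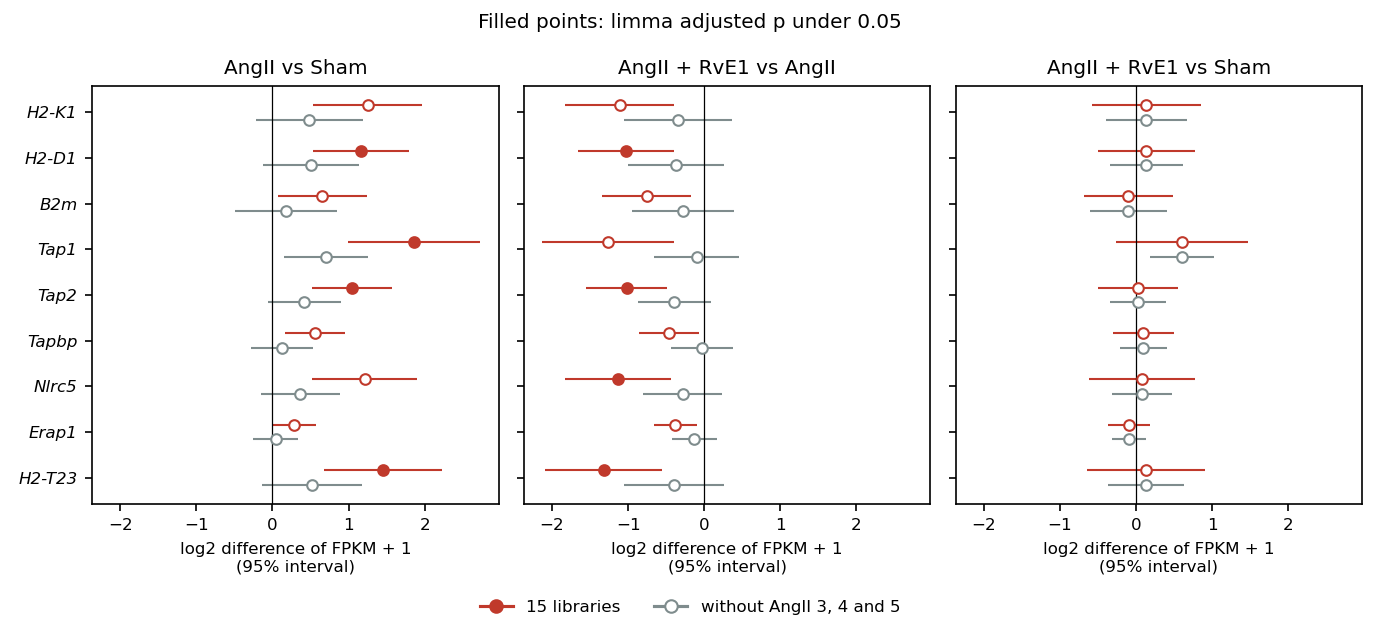
Log2 differences of FPKM + 1 with 95% intervals for the 9 class I genes in 3 comparisons, from all 15 libraries (red) and without AngII 3, 4 and 5 (grey). Filled points have a limma adjusted p under 0.05. There are 4 filled points in AngII vs Sham, 4 in AngII+RvE1 vs AngII and none elsewhere.

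Ratios between genes within a library were compared with exact permutation tests (two-sided, 252 splits, smallest possible p 0.00794), 12 in all. The log2 ratio of Tap1 over Tap2 averaged -0.57 ± 0.57 in AngII and -1.53 ± 0.24 in Sham (exact p = 0.0159, adjusted p = 0.0952). In AngII+RvE1 it averaged -0.86 ± 0.39, which against the same Sham libraries gave exact p = 0.0238 and adjusted p = 0.0952. In AngII libraries 1 to 5 this log2 ratio was -1.23, -1.08, -0.06, -0.48 and -0.02, while Sham ran from -1.85 to -1.22. The log2 ratio of H2-K1 plus H2-D1 over B2m averaged -0.56 ± 0.23 in AngII against -1.11 ± 0.22 in Sham (exact p = 0.0159, adjusted p = 0.0952). For AngII+RvE1, at -0.87 ± 0.11, against AngII the exact p was 0.0317 and the adjusted p 0.0952. In AngII libraries 1 to 5 this ratio was -0.68, -0.90, -0.36, -0.52 and -0.36, while Sham ran from -1.33 to -0.85. Ratios were not tested without AngII 3, 4 and 5. None of the 12 passed after adjustment, and H2-K1 over H2-D1 stayed near -0.34 ± 0.12 in AngII+RvE1, -0.25 ± 0.13 in AngII and -0.34 ± 0.11 in Sham (n = 5 each, SD).

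The 9 genes moved together over all 15 libraries, and less so without AngII 3, 4 and 5. Since 15% of all tested genes were highest in those 3 libraries, a high r over 15 is not particular to this set. Over all 15 libraries the 36 pairs had Pearson r between 0.819 and 0.993, with a median of 0.925. Over the 12 libraries without AngII 3, 4 and 5 the range was 0.128 to 0.973 and the median 0.571. H2-K1 and H2-D1 remained the closest pair, with r = 0.993 over 15 and 0.973 over 12 libraries, although 6.94% of the 50-base stretches of H2-K1 are also in H2-D1 transcripts, so reads could be split between them. Shared stretches made up 28.8% of H2-T23, 14.3% of H2-D1 and 8.79% of H2-K1, which makes the levels of these 3 genes less certain. They made up 2% or less of the other 6, with none in B2m, Nlrc5 or Erap1.

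Likeness to the mean z-score of the 9 genes was measured by Pearson r, and only the highest of all tested genes are named. With so many genes and only 15 or 12 libraries, a high r can arise through this selection alone. It is a description without a test. The closest of the other tested genes over 15 libraries were Vsir (0.987), an immune checkpoint ligand, Ucp2 (0.983), Icosl (0.982), a T cell costimulatory ligand, Marcksl1 (0.980), Irf7 (0.974), a transcription factor of the interferon response, and Pglyrp1 (0.974). Over the 12 libraries they were Vsir (0.912), Tm6sf2 (0.909), Procr (0.906), an endothelial receptor for protein C, Ucp2 (0.895), Irf7 (0.887) and Zc3hav1 (0.883), an antiviral zinc finger protein. For Tap1 alone the closest gene was Irf1 over 15 libraries (0.986) and Igtp, an interferon-induced GTPase, over 12 (0.963). For B2m it was Ly6e both times (0.973 and 0.906). Tm6sf2 was low in all libraries, between 0.639 FPKM in Sham 5 and 1.87 FPKM in Sham 1.

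Genes around the pathway were taken from 7 lists of 77 genes, of which 58 were tested. In AngII against Sham, 7 of 58 were called higher by limma and 0 lower, against 2.36% and 0.809% of all tested genes, with a median log2 difference of 0.33 against 0.11 over all tested genes. In AngII+RvE1 against AngII, 7 of 58 were called lower and 0 higher, against 4.31% and 4.21%, with a median of -0.42 against -0.11. In AngII+RvE1 against Sham 0 of 58 were called, with 1 at an unadjusted p under 0.05, against 6.69% of all tested genes. The counts in single lists given next are to be read against the same shares. Without AngII 3, 4 and 5 Cd8a missed the filter, and limma called 0 of the pathway genes still tested in all 3 comparisons. At an unadjusted p under 0.05 stood 6 in AngII against Sham (6.77% of all tested genes), 6 in AngII+RvE1 against AngII (11.6%) and 3 in AngII+RvE1 against Sham (7.69%). These counts are near the share over all genes.

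Immunoproteasome subunits replace the constitutive catalytic subunits and change which peptides are cut. Of 6 genes for the immunoproteasome and its PA28 activator, 2 rose in AngII against Sham, where 2.36% of all tested genes were called higher. Psmb8 rose by 1.63 (SE 0.37, limma adjusted p = 0.0347) and Psmb9 by 1.52 (SE 0.35, limma adjusted p = 0.0348). Psmb9 had 14.6, 13.5, 14.1, 15.6 and 21.2 FPKM in AngII+RvE1, 19.7, 19.1, 64.1, 36.2 and 73.5 FPKM in AngII, and 17.5, 9.74, 16.7, 13.0 and 6.83 FPKM in Sham. Its AngII and Sham libraries did not overlap, as for its neighbour Tap1 and for 2.92% of all tested genes.

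In AngII+RvE1 against AngII, 1 of the 6 fell, against 4.31% of all tested genes, namely Psmb8 with a log2 difference of -1.36 (limma adjusted p = 0.0405), while Psmb9 differed by -1.18 (limma adjusted p = 0.0508). The constitutive counterparts Psmb5, Psmb6 and Psmb7 gave 0 of 3 calls in either comparison, with median log2 differences of 0.00 in AngII against Sham and -0.02 in AngII+RvE1 against AngII. Psmb5 averaged 79.3 ± 13.5 FPKM with AngII+RvE1, 84.8 ± 12.04 FPKM with AngII and 86.1 ± 21.4 FPKM in Sham (n = 5 each, SD).

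Other class I heavy chains numbered 12 tested of 20 listed, Cd1d1, Mr1, Fcgrt and Hfe among them. In AngII against Sham 3 of 12 rose by limma's test, against 2.36% of all tested genes, H2-Q4 by 1.56 (adjusted p = 0.0403), H2-T24 by 1.24 (adjusted p = 0.0348) and H2-T22 by 0.76 (adjusted p = 0.0388), and the list's median log2 difference was 0.70. Of the 12 differences 10 were positive, while Mr1 differed by -0.42 and H2-Q10 by -0.46 (limma adjusted p = 0.0881 and 0.399). In AngII+RvE1 against AngII 1 of 12 fell, against 4.31%, H2-T24 with -1.35 (limma adjusted p = 0.0189), and the median was -0.76. Mr1 went the other way there, by 0.40 (limma adjusted p = 0.0761), with all AngII+RvE1 libraries above all AngII libraries. General loading chaperones and peptidases such as calreticulin (Calr) and Pdia3 gave 0 of 12 calls in both comparisons, with medians of 0.14 and -0.23. Calr differed by 0.04 and Pdia3 by 0.15 in AngII against Sham on the log2 scale.

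Of 14 transcription factors tested for class I genes, 1 rose in AngII against Sham, against 2.36% of all tested genes. This was Irf9, a DNA-binding partner in the interferon response, higher by 0.92 in log2 units (SE 0.21, limma adjusted p = 0.0348). Against AngII, 3 of the 14 fell in AngII+RvE1, where 4.31% of all tested genes were called lower, with log2 differences of -0.88 for Irf2, -0.79 for Irf9 and -0.41 for Atf1 and limma adjusted p of 0.0359, 0.0376 and 0.0451. Irf1 was called in neither, with 1.05 in AngII against Sham and -0.79 in AngII+RvE1 against AngII (limma adjusted p = 0.0504 and 0.0791). Irf9 had 9.33, 8.07, 6.96, 9.55 and 9.03 FPKM in AngII+RvE1, 9.91, 11.5, 21.6, 13.6 and 26.2 FPKM in AngII, and 9.03, 7.50, 6.56, 8.73 and 7.08 FPKM in Sham. The AngII libraries lay above all others, AngII 1 and 2 included. Against Sham alone this was seen in 2.92% of all tested genes, and against AngII+RvE1 alone in 5.23%. Without AngII 3, 4 and 5 Irf9 differed by 0.42 in AngII against Sham and -0.29 in AngII+RvE1 against AngII (limma adjusted p = 0.572 and 0.482).

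Of 8 interferon gamma signalling genes tested, 1 was called in each comparison with AngII, against 2.36% of all tested genes called higher and 4.31% called lower. This was Ifngr1, a chain of the interferon gamma receptor, with log2 differences of 0.78 in AngII against Sham (SE 0.15, limma adjusted p = 0.0193) and -0.78 in AngII+RvE1 against AngII (SE 0.15, limma adjusted p = 0.0159). Ifngr1 had 34.9, 35.7, 31.6, 31.2 and 40.1 FPKM in AngII+RvE1, 52.8, 43.8, 79.7, 59.7 and 70.3 FPKM in AngII, and 36.9, 29.1, 31.4, 40.9 and 35.3 FPKM in Sham. All 5 AngII libraries exceeded the other 10. Against Sham alone 2.92% of all tested genes did so, and against AngII+RvE1 alone 5.23%. Without AngII 3, 4 and 5 the Ifngr1 log2 differences were 0.47 and -0.47, with limma adjusted p of 0.505 and 0.341. Interferon gamma itself (Ifng) stayed under the filter on low values and was not tested.

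The list of CD8 and NK receptors was mostly too low to test, 4 of 12 genes passing the filter (Cd8a, Cd8b1, Lilrb4a and Pirb). No NK cell receptor of the list was tested. Pirb, an inhibitory receptor on myeloid and B cells that binds class I, fell in AngII+RvE1 against AngII with a log2 difference of -1.70 (limma adjusted p = 0.0469). In AngII against Sham 0 of 4 were called. A gene that would miss the filter without AngII 3, 4 and 5, such as Cd8a, had to reach 1 FPKM there. The count over tested genes is therefore a description.

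**Figure D4:**
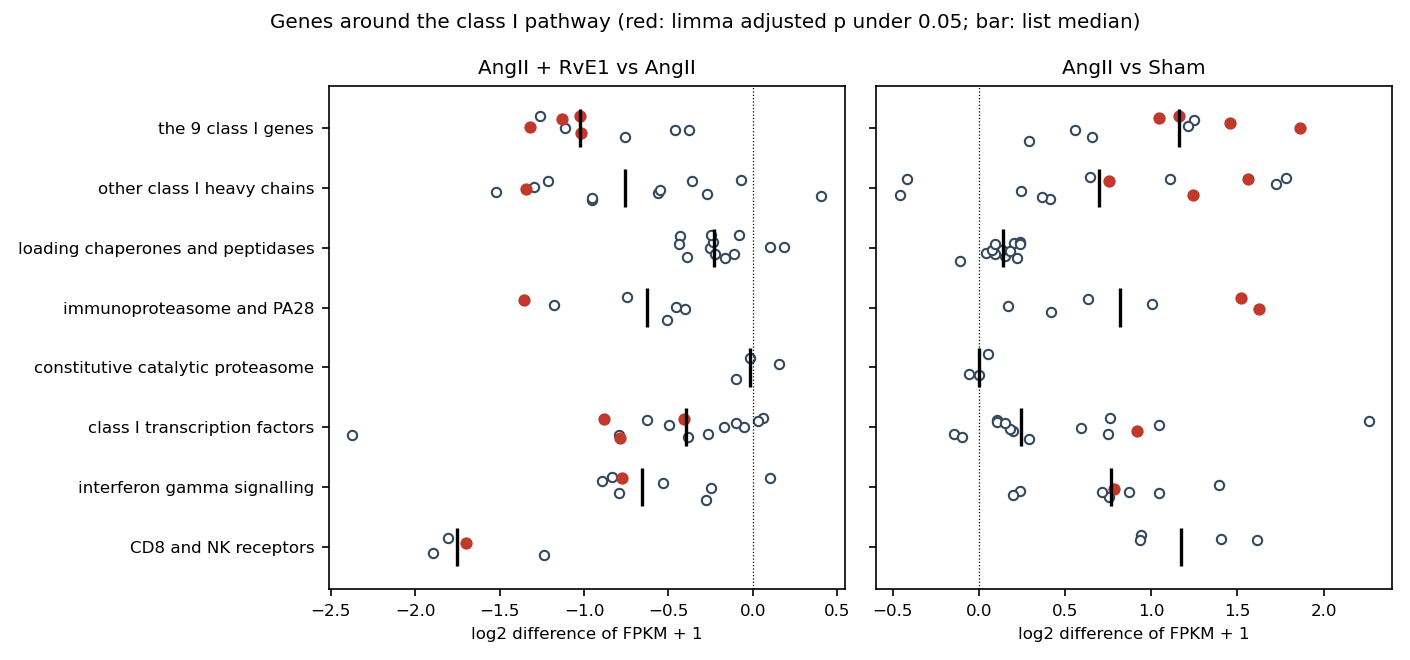
Log2 differences of FPKM + 1 in AngII+RvE1 vs AngII (left) and AngII vs Sham (right) for the tested genes of the class I set and of 7 pathway lists, 1 point per gene, red where the limma adjusted p was under 0.05. Black bars are list medians, at -1.02 and 1.16 for the 9 class I genes and -0.02 and 0.00 for the constitutive proteasome.

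T cell, B cell and pan-leukocyte markers were highest in AngII 3, 4 and 5, as the class I genes were. Over the other 12 libraries their sums had Pearson r of -0.13, -0.07 and 0.25 with the mean of the 9 genes. Macrophage, dendritic cell and NK cell sums were also highest in AngII 3, 4 and 5. Over the other 12 libraries these had Pearson r of 0.62, 0.66 and 0.29. Summed T cell markers (8 of 9 listed genes in the table) ranged over 2.48 to 9.86 FPKM in AngII+RvE1, 3.33 to 267 FPKM in AngII and 1.48 to 37.1 FPKM in Sham. Summed B cell markers ranged over 4.33 to 7.33 FPKM in AngII+RvE1, 3.87 to 1076 FPKM in AngII and 2.56 to 37.2 FPKM in Sham. The pan-leukocyte sum (4 of 4 genes) was 18.5 to 25.1 FPKM in AngII+RvE1, 25.1 to 637 FPKM in AngII and 13.9 to 46.2 FPKM in Sham. For T cell, B cell and pan-leukocyte markers the top of the AngII range came from libraries 3, 4 and 5. AngII 1 and 2 were at 3.33 to 5.63 FPKM for T cells and 25.1 to 33.2 FPKM for pan-leukocyte markers.

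Macrophage markers (8 of 8 genes) summed to 123 to 160 FPKM in AngII+RvE1, 130 to 966 FPKM in AngII and 100.04 to 137 FPKM in Sham. AngII 3, 4 and 5 held 308 to 966 FPKM of them, AngII 1 130 FPKM and AngII 2 257 FPKM. NK cell markers (4 of 4 genes) summed to 0.719 to 2.96 FPKM in AngII+RvE1, 2.17 to 32.7 FPKM in AngII and 0.969 to 3.65 FPKM in Sham. Dendritic cell markers (4 of 4 genes) summed to 4.60 to 5.65 FPKM in AngII+RvE1, 5.09 to 14.8 FPKM in AngII and 4.23 to 5.57 FPKM in Sham. Neutrophil markers (4 of 4 genes) did not follow the pattern throughout, since AngII 3, 4 and 5 ranged from 4.25 to 231 FPKM.

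Markers of other cells were also summed. Smooth muscle markers (6 of 6 genes) summed to 5285 to 9497 FPKM in AngII+RvE1, 1179 to 3337 FPKM in AngII and 1717 to 12020 FPKM in Sham, so smooth muscle RNA was present in all groups while AngII lay low. Endothelial markers (5 of 5 genes) summed to 137 to 257 FPKM in AngII+RvE1, 187 to 256 FPKM in AngII and 93.7 to 280 FPKM in Sham, and fibroblast markers (4 of 4 genes) to 397 to 821 FPKM in AngII+RvE1, 444 to 871 FPKM in AngII and 341 to 707 FPKM in Sham. Red cell markers (3 of 3 genes) were high in AngII+RvE1, with sums of 17934 to 50528 FPKM there, 4860 to 28758 FPKM in AngII and 3417 to 12709 FPKM in Sham. Cardiac muscle markers (4 of 4 genes) summed to 8.51 to 889 FPKM in AngII+RvE1, 7.23 to 1588 FPKM in AngII and 36.3 to 661 FPKM in Sham. Adipocyte markers (5 of 5 genes) summed to 6135 to 11697 FPKM in AngII+RvE1, 7676 to 15334 FPKM in AngII and 6442 to 17757 FPKM in Sham. No marker of these lists was at 0 in all libraries of a group. In bulk tissue, fewer cells of a type and less RNA per cell cannot be told apart, and the part of leukocytes, red cells or other cells in the class I levels was not tested.

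Over the 12 libraries without AngII 3, 4 and 5, which share their tissue source and 3 groups, the mean of the 9 genes had Pearson r of 0.72 with the endothelial sum, 0.66 with the dendritic cell sum and 0.62 with the macrophage sum. Pecam1 was the largest part of the endothelial sum, with 124 of 243 FPKM in Sham 1 and 156 of 257 FPKM in AngII+RvE1 5. That r therefore says little about the list as a whole. Zbtb46, which is not confined to dendritic cells, was the only gene of the dendritic cell list to pass the filter on low values. The r values were 0.51 with neutrophil, 0.46 with fibroblast, 0.45 with red cell, 0.29 with NK cell and 0.25 with pan-leukocyte markers. They were 0.06 with smooth muscle, -0.07 with B cell, -0.13 with T cell, -0.16 with cardiac muscle and -0.21 with adipocyte markers.

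**Figure D5:**
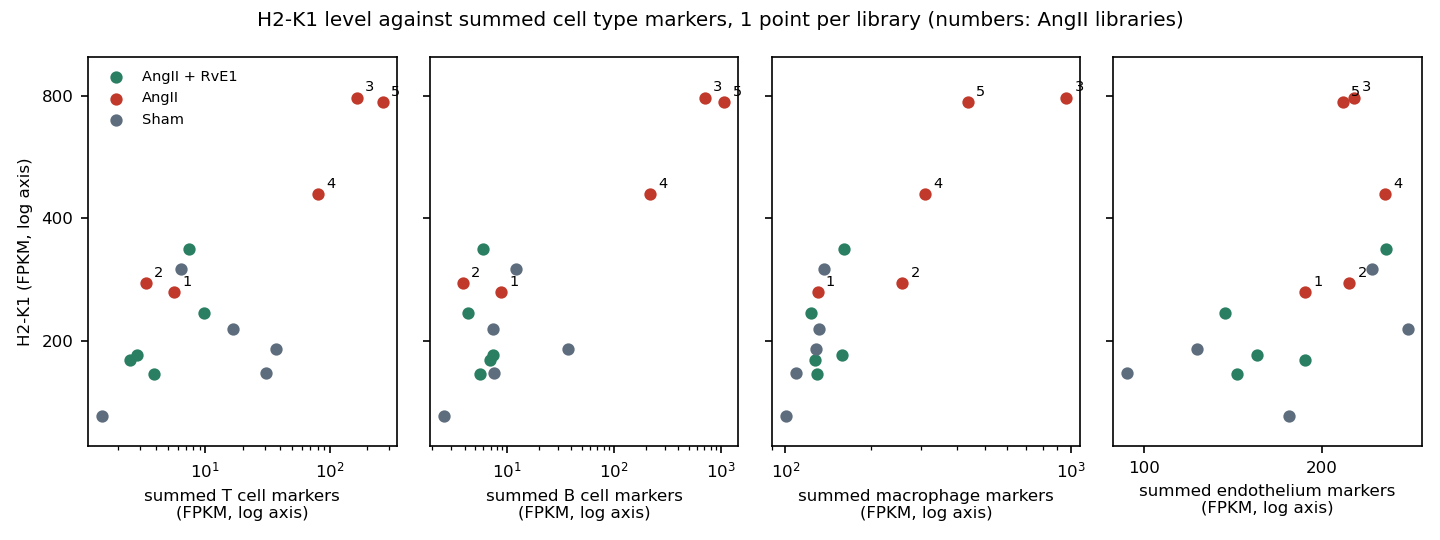
H2-K1 in FPKM (vertical, log axis) against the summed markers of T cells, B cells, macrophages and endothelium (horizontal, log axes), 1 point per library, coloured by AngII+RvE1, AngII and Sham, with numbers on AngII libraries. AngII 3, 4 and 5 lie at the upper right in the leukocyte panels, between 81.0 and 267 FPKM of T cell markers, and inside the range of the other libraries for endothelium.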

How the data were processed

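Total RNA of 15 aorta samples had been made into libraries with the SMARTER mRNA-Seq kit, per the labels' protocols. The authors deposited 1 table of normalized values per gene and library, read here as FPKM from the values and not from a stated unit. The genome build was mm10, per the submitters' processing notes. The sources used here name neither aligner nor quantifier, and counts were not used. Groups came from the titles and treatment labels. Values were fitted as log2(FPKM + 1) with limma 3.58.1 in R 4.3.3 (trend, 1 mean per group over all 15 libraries, 3 comparisons, two-sided). Genes with at least 1 FPKM in at least 5 libraries were tested, and p-values were adjusted over all of them by Benjamini-Hochberg at 0.05. The procedure was tested on simulated data. The class I genes and the lists were chosen with earlier results of these data known. All 9 class I genes were named, with pathway genes by calls and smallest adjusted p, and 1 further gene of the pathway lists was left out of lists and counts and is not reported here. Alternatives varied the pseudocount (0.1), the filter, the groups fitted, a replicate block, the scaling, library weights and the libraries kept. Promoters came from RefSeq (GRCm38.p6), matched by symbol, and shared stretches from GENCODE M21 transcripts.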

Additional observations from a re-analysis of the deposited data

Results flagged for a closer look

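Of 66 checks for a library far from the others of its group (gap over range above 0.71), 6 were positive, and chance alone gives about 1 in 20. Nlrc5 in AngII+RvE1 3, at 0.548 FPKM, was the lowest of its group. AngII+RvE1 5 had the highest log2 ratio of H2-K1 plus H2-D1 over B2m of its group, -0.68, and the highest log2 ratio of H2-K1 over H2-D1, -0.14. Summed B cell markers stood at 37.2 FPKM in Sham 3. Summed neutrophil markers stood at 231 FPKM in AngII 3 and at 40.1 FPKM in Sham 4.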

How the results depend on the processing

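The number of class I genes called depended on the settings, while the sign of the differences did not in either comparison with AngII. In AngII vs Sham (4 of 9 higher) the count was 0 with no filter on low values, 0 with only the 2 groups fitted, 0 with the replicate block, 7 with array weights and 0 without AngII 3, 4 and 5, where the median was 0.42. Leaving out single libraries gave 0 to 7 called. In AngII+RvE1 vs AngII (4 of 9 lower) it was 0 with no filter, 1 with 2 groups fitted, 0 with the replicate block, 9 with array weights, which gave AngII 4 the largest weight (6.35), and 0 without AngII 3, 4 and 5, where the median was -0.28. Leaving out single libraries gave 0 to 9. Pseudocount 0.1 and rescaling left both counts within 1.5 times; after rescaling the all-gene median in AngII vs Sham was -0.0038, against 0.11 before. The cause was not tested.

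Pathway calls moved likewise, from 7 higher to between 0 and 20 and from 7 lower to between 0 and 21 as single libraries were left out. In AngII+RvE1 vs Sham 0 of the 9 class I genes were called throughout, and differences near 0 changed sign: Tap2 was -0.00121 after rescaling and, with single libraries left out, ranged from -0.0837 to 0.13, B2m from -0.22 to 0.00861 and H2-K1 from -0.0285 to 0.30. The labels state no pairing by replicate number, and the values did not settle whether there was one. As deviations from their group means, same-numbered libraries correlated between -0.41 and 0.10 in AngII and Sham. The range was -0.34 to 0.03 in AngII+RvE1 and AngII, and 0.02 to 0.52 in AngII+RvE1 and Sham. Of 10 libraries per comparison, 0 to 2 correlated best with their own number. Low genes such as Nlrc5 depend most on the pseudocount, with 1.64 at 0.1 in AngII vs Sham.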
